A study of Homo sapiens with 33 samples.

Results

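TS cells in which the anaplastic lymphoma kinase gene (ALK) had been silenced for 84 h were compared with TS cells silenced for 72 h. The samples were chosen by their titles: 3 arrays of TS cells with hairpin A5 and doxycycline at 84 h, and 3 with the same hairpin and doxycycline at 72 h, 6 of the 33 arrays of the series. TS is a subclone of the human line Sup-M2, which came from a T-cell lymphoma known as anaplastic large cell lymphoma (ALCL), and the rest of the series held Su-DHL1 cells, a mutated control hairpin and ALK inhibitors. Each RNA sample was read on 1 Affymetrix HG-U133A array.

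All A5 cells carried 2 lentiviral constructs, the repressor vector pLV-DsRed-tTRKRAB and the hairpin vector pLVTH-GFP-shRNA, and the hairpin against ALK was switched on by doxycycline at 1 microg/ml. The cells had been sorted by flow cytometry for GFP and DsRed after a short induction, and cells with GFP in the absence of the inducer had been removed, so the line was a sorted and expanded pool that had met doxycycline before. The groups used here were TS A5 with doxycycline at 84 h (called induced, 84 h) and at 72 h (induced, 72 h), and TS A5 without doxycycline labelled 84 h and 72 h (uninduced), with 3 arrays each. The labels do not say whether the arrays of a group came from separate cultures. P-values therefore rest on the spread among the deposited arrays, and that spread may be technical. Time and any batch of handling cannot be told apart by the labels. The mutated hairpin was read at 84 h only, so doxycycline and the hairpin cannot be told apart in the time changes.

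In ALK-positive ALCL a chromosome rearrangement joins ALK to a partner gene, most often NPM1, and the fusion protein is a constantly active tyrosine kinase. It is known to signal through STAT3, the RAS-ERK pathway and PI3K-AKT, and loss of its activity is known to stop these cells in G1. Genes of DNA synthesis are transcribed around the G1/S transition by E2F factors, and genes of mitosis peak in G2 and M, through elements that bind the MuvB complexes and FOXM1.

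Values are MAS5 signals, an intensity on a linear scale, printed per array in the order of the replicate numbers. Changes are differences in log2(signal + 11), 84 h minus 72 h, with the standard error (SE) of the linear model. They understate the change of genes with low signal. A gene was called at a Benjamini-Hochberg adjusted p below 0.05 in limma over the 9097 genes tested. Correlations between arrays were Pearson's r over the 15338 probe sets that passed the filter. They lay between 0.974 and 0.976 within the induced 84 h group and between 0.979 and 0.981 within the induced 72 h group. Across the 2 groups they lay between 0.963 and 0.971. The ratio of the 3' to the 5' ACTB probe sets, a measure of RNA integrity, was 1.27 ± 0.02 at 84 h and 1.32 ± 0.05 at 72 h (SD, n = 3 each, exact permutation test, two-sided, p = 0.2, where 0.1 is the smallest p this design allows). The GAPDH ratio was 0.861 ± 0.032 at 84 h and 0.826 ± 0.035 at 72 h (SD, n = 3 each, exact permutation test, p = 0.3). The median signal of the array was 66.1 to 66.4 at 84 h and 60.4 to 63.6 at 72 h.

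The targeted gene was read by 2 probe sets. Probe set 208212_s_at gave ALK signals of 201, 254 and 289 in induced cells at 84 h, and 315, 287 and 389 at 72 h. The groups overlapped, since the highest 84 h array lay just above the lowest 72 h array. Both were far below the uninduced cells, with 1927, 2091 and 2100 at 84 h and 1818, 1806 and 1844 at 72 h. Between the induced times ALK was lower by -0.40 ± 0.11 (log2 difference ± SE, limma adjusted p = 0.0194 over 15338 probe sets). That call was lost without replicate 1 of 84 h (-0.26, adjusted p = 0.147), without replicate 3 of 72 h (-0.28, adjusted p = 0.148), and in a fit on the 6 arrays alone (adjusted p = 0.106). Probe set 208211_s_at had 151, 131 and 131 at 84 h and 129, 127 and 145 at 72 h, a difference of 0.04 ± 0.11 (adjusted p = 0.895), so the 2 probe sets did not give the same result. The transcription factor gene CEBPB (0.10) and the survival gene BCL2A1 (-0.27), both known as genes activated by ALK, did not pass the test between the times. For the fusion partner NPM1 the call depended on the probe set: 200063_s_at, the one with the highest mean, was not called (-0.18, adjusted p = 0.122), whereas 221923_s_at (-0.55, adjusted p = 0.000341) and 221691_x_at (-0.26, adjusted p = 0.0387) were lower at 84 h in limma over all probe sets.

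Between the induced states 1049 of 9097 genes were called, or 11.5%: 416 were higher at 84 h (4.57%) and 633 lower (6.96%). Of the called genes 33 higher and 56 lower ones differed by at least 2-fold, and the median over all genes was 0.02. At an unadjusted p below 0.05 there were 2199 genes. The same labelled times without doxycycline gave 368 calls (4.05%), 161 higher (1.77%) and 207 lower (2.28%), with a median of 0.04 over all genes. The difference between the induced and the uninduced time change, tested as an interaction in the same fit, was called for 116 genes (1.28%), 27 with a higher (0.297%) and 89 with a lower change in induced cells (0.978%). The groups of 3 induced arrays were without overlap for 1527 genes with 84 h higher (16.8%) and 1436 with 84 h lower (15.8%).

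Mitotic genes fell almost as a group. Of 44 tested genes of the G2/M and mitosis list, 41 were lower at 84 h, 0 higher, and the median difference was -0.90, against 0.02 over all genes. The 3 members not called, named after their values were seen, were KIF23 (-0.57), CENPA (-0.41) and CDC25C (-0.30). In uninduced cells 0 of the 44 were called and their median difference was -0.01. The interaction was called for 30 members, all of them with the lower change in induced cells.

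CENPM, which encodes a centromere protein, had signals of 11.2, 7.9 and 7.4 in induced cells at 84 h and 81.1, 84.9 and 100.6 at 72 h. The groups were far apart, and the 84 h arrays lay below the 40th percentile of their array, which was 37.5 to 43.0. It was lower by more than any other called gene (-2.33 ± 0.16, adjusted p = 2.85e-09), while uninduced cells had 281, 258 and 173 at 84 h and 207, 235 and 229 at 72 h. CENPE, a kinetochore motor, had 31.5, 14.3 and 27.1 at 84 h and 99.2, 104 and 92.6 at 72 h, without overlap (-1.67 ± 0.17, adjusted p = 8.73e-07). NCAPG, a subunit of condensin, which compacts mitotic chromosomes, had 40.1, 40.4 and 44.6 at 84 h and 131, 145 and 163 at 72 h, again without overlap (-1.57 ± 0.14, adjusted p = 9.05e-08). FOXM1, the transcription factor of the G2/M programme, had 33.8, 22.3 and 21.6 at 84 h and 115, 103 and 74.7 at 72 h (-1.55 ± 0.16, adjusted p = 8.73e-07).

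Members with more signal moved the same way. KIF11, the kinesin that separates the spindle poles, had 59.4, 53.7 and 63.3 at 84 h and 175, 169 and 155 at 72 h (-1.35 ± 0.11, adjusted p = 3.56e-08). The groups did not overlap, and the uninduced arrays, at 236 to 285 for 84 h and 247 to 286 for 72 h, overlapped fully. CCNB1, the mitotic cyclin B1, chosen after its values were seen, had 261, 380 and 368 at 84 h and 671, 679 and 766 at 72 h (-1.06 ± 0.12, adjusted p = 1.76e-06). Its partner kinase CDK1 (-1.16), the mitotic kinase PLK1 (-1.11), the topoisomerase TOP2A (-0.96) and the proliferation marker MKI67 (-0.84), chosen in the same way, fell as well. Summed over the list, the signal was 8001 to 8583 on the 84 h arrays and 14928 to 15586 on the 72 h arrays of induced cells, against 32516 to 36079 and 32905 to 33456 in uninduced cells at 84 h and 72 h. In bulk RNA, fewer cells in mitosis and less RNA per cell cannot be told apart.

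**Figure D1:**
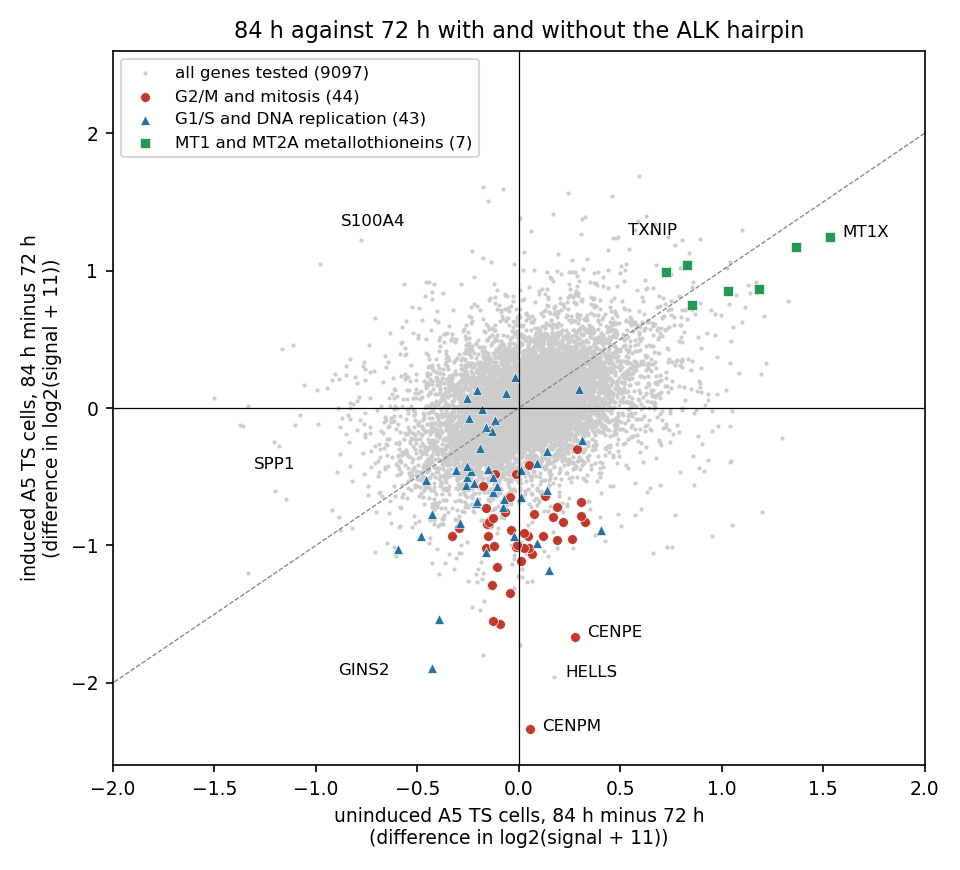
Difference between 84 h and 72 h for each of 9097 genes, in induced A5 TS cells (vertical) and uninduced A5 TS cells (horizontal), both as differences in log2(signal + 11). The 44 G2/M genes (red circles) lie below the horizontal line with uninduced values around 0, the 43 G1/S genes (blue triangles) lie mostly below it, and the 7 metallothionein genes of the MT1 and MT2A group (green squares) lie near the dashed line of equal change.

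Most of these genes were already below uninduced cells at 72 h. Over the G2/M list the median difference between induced and uninduced cells was -2.10 at 84 h and -1.13 at 72 h, with 44 and 43 of 44 members called lower. These differences share arrays with the comparison of the times and are given side by side only. CENPE differed from uninduced cells by -2.24 at 84 h and by -0.30 at 72 h, KIF11 by -1.97 and by -0.66, and CENPM by -3.62 and by -1.23. Induced and uninduced arrays also differed in the ACTB ratio, 1.27 ± 0.02 and 1.54 ± 0.05 at 84 h (SD, n = 3 each), and its part in these differences was not tested.

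Genes of DNA replication fell less. Of 43 tested members of the G1/S list 26 were lower at 84 h, 0 higher, with a median of -0.53, and 2 were lower in uninduced cells, where the median was -0.16. The interaction was called for 8. GINS2, a subunit of the replicative helicase, had 31.0, 24.8 and 3.6 at 84 h and 104, 79.9 and 96.4 at 72 h in induced cells, without overlap, though the 84 h arrays differed widely among themselves (-1.89 ± 0.26, adjusted p = 2.81e-05). CHAF1B, of the complex that loads histones on new DNA, had 6.1, 3.1 and 4.5 at 84 h and 44.4, 41.1 and 20.6 at 72 h (-1.54 ± 0.22, adjusted p = 4.96e-05). TYMS, thymidylate synthase, had 1055, 854 and 745 at 84 h and 2137, 2013 and 1856 at 72 h (-1.18 ± 0.14, adjusted p = 2.57e-06). MCM4, of the helicase ring, had 138, 135 and 121 at 84 h and 266, 285 and 299 at 72 h (-1.05 ± 0.10, adjusted p = 1.19e-07). All of these groups were apart. Over the list the median difference from uninduced cells was -1.91 at 84 h and -1.55 at 72 h, with 43 and 42 of 43 members lower. E2F1, whose protein drives this programme, had a difference of -0.09 between the times (adjusted p = 0.827) and was chosen after its value was seen.

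Genes of DNA repair fell in part, 6 of 16 tested lower and 0 higher (median -0.35), among them FANCI (-1.27) of the Fanconi pathway, RAD51AP1 (-1.20) and RAD54L (-0.97) of homologous recombination, and the checkpoint kinase CHEK1 (-0.80). The list of histones and chromatin assembly split, with 5 of 14 tested genes higher and 7 lower. Called members made up 37.5% of the repair list and 85.7% of the histone list, against 11.5% of all genes tested. HELLS, a chromatin remodelling enzyme needed for DNA methylation, had 5.1, 11.5 and 3.4 at 84 h and 52.7, 54.3 and 62.8 at 72 h (-1.96 ± 0.18, adjusted p = 1.19e-07). ASF1B, a histone chaperone, fell by 1.07 on the log2 scale. The genes that rose were 5 histone genes. H1-2, a linker histone, had 596, 453 and 463 at 84 h and 225, 166 and 168 at 72 h, far apart (1.39 ± 0.20, adjusted p = 4.9e-05). H2AC6 had 2282, 1730 and 1707 at 84 h and 891, 856 and 778 at 72 h (1.16 ± 0.11, adjusted p = 3.86e-07). It also rose in uninduced cells (0.54, adjusted p = 0.00819), where it had 194, 183 and 215 at 84 h and 147, 136 and 114 at 72 h. Histone genes are near copies of each other, so their probe sets may read more than 1 of them.

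The cyclin and inhibitor genes of G1 moved less. Of 23 tested members 5 were lower, among them E2F8 (-0.65), the phosphatase CDKN3 (-0.56) and the G1 kinase CDK4 (-0.47), and 1 was higher. That gene was CDKN1A, which encodes the CDK inhibitor p21. It had 2411, 2434 and 2617 in induced cells at 84 h and 1537, 1617 and 1518 at 72 h, without overlap (0.67 ± 0.10, adjusted p = 6.11e-05). In uninduced cells it had 1162, 874 and 1034 at 84 h and 1067, 1073 and 1096 at 72 h, and the interaction was called (0.76, adjusted p = 0.00323). Of 18 tested p53 targets 3 rose, CDKN1A, SESN1 (0.63) and CCNG1 (0.51), and 1 fell, TIGAR (-0.47). Called members made up 26.1% of the cyclin and inhibitor list and 22.2% of the p53 list, against 11.5% of all genes tested. In uninduced cells 16.7% of the p53 list was called, against 4.05% of all genes. CCNG1 and TIGAR were also called in uninduced cells, at 0.61 and -0.69.

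**Figure D2:**
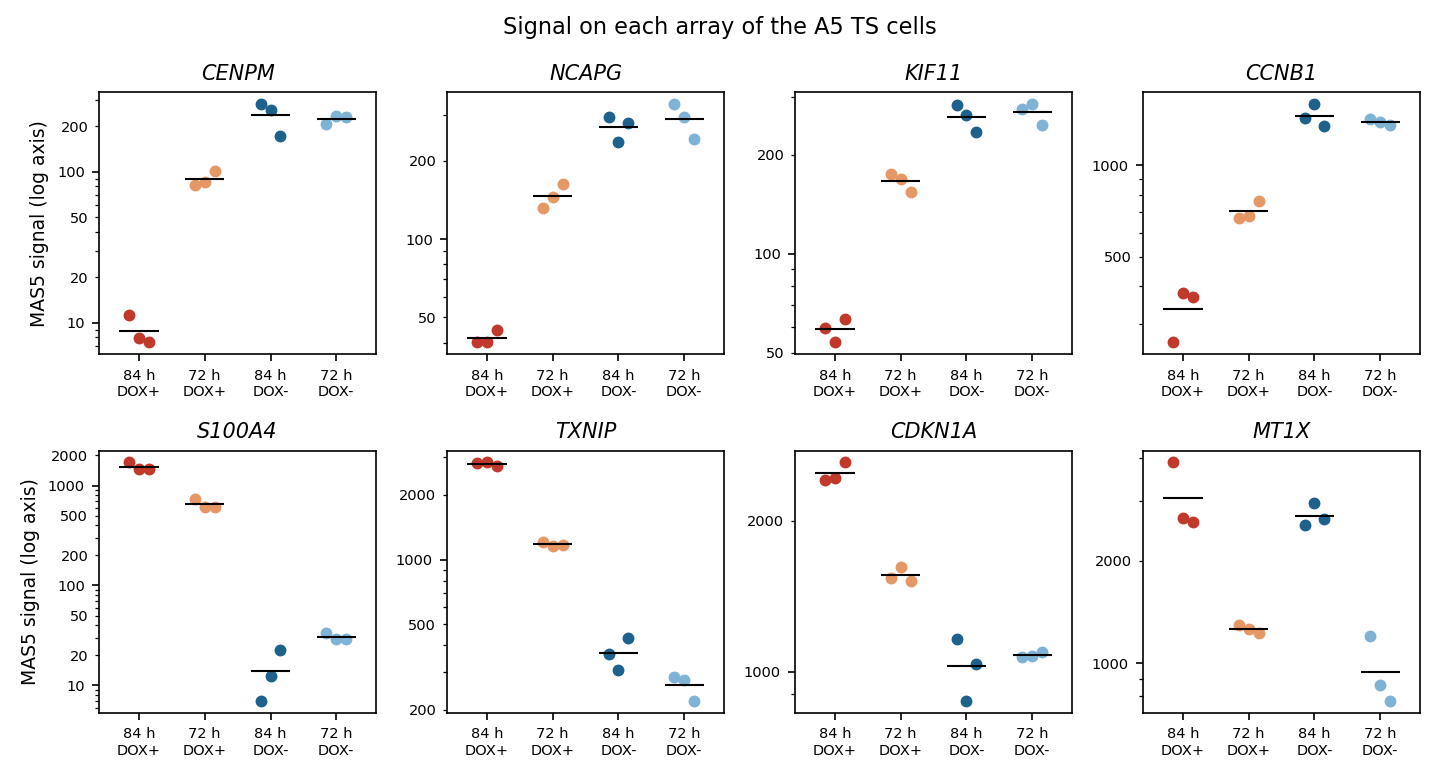
MAS5 signal (log axis) of 8 genes on each array of induced (DOX+) and uninduced (DOX-) A5 TS cells at 84 h and 72 h, with a line at the mean of 3 arrays. CENPM, NCAPG, KIF11 and CCNB1 are lower at 84 h in induced cells without overlap, S100A4, TXNIP and CDKN1A are higher, and MT1X is higher at 84 h in induced and uninduced cells alike.

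The promoters of the 2 cell cycle groups were read for 3 short motifs, because these groups moved together. The motifs were TTTGAA, a form of the CHR element of mitotic genes, TTNGCGC, a form of the E2F site, and CCAAT, the site of NF-Y. Both strands were searched from 250 bases before to 50 bases after each gene's start (RefSeq, GRCh38.p14), and no 2 of the motifs are part of each other. TTTGAA stood in 24 of 35 G2/M promoters (68.6%), in 1 of 37 G1/S promoters (2.7%) and in 10.4% of the 7461 tested genes with a promoter in the table. TTNGCGC stood in 20% of the G2/M promoters, 56.8% of the G1/S promoters and 12.2% of those of all tested genes. CCAAT stood in 71.4%, 56.8% and 37.4%. Of all 776 tested genes with TTTGAA 12.9% were called lower at 84 h, against 6.58% of the 6685 without it, and the G2/M genes are among them. The contrast was not particular to TTTGAA. For TTNGCGC the shares were 12.5% of 913 genes with it and 6.51% of 6548 without it. For CCAAT they were 8.97% of 2788 and 6.21% of 4673. A match is a description of letters and says nothing of binding.

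The 150 bases up to the start are shown for 4 G2/M and 3 G1/S genes, among those that fell at 84 h, to show where the motifs lie. Only genes whose stretch held TTTGAA (G2/M) or TTNGCGC (G1/S) were eligible, taken in order of their fall. Genes without a promoter sequence and those of a single skipped chromosome were passed over, so genes with larger falls may be missing. That each gene shown holds its motif therefore follows from the choice. Capitals mark each match of the 3 motifs on either strand, and sequences are in the direction of the gene.
NCAPG, chr4:17810829-17810978, + strand: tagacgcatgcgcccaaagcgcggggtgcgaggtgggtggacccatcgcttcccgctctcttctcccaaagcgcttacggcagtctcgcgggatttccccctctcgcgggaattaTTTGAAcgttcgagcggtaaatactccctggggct
KIF11, chr10:92592980-92593129, + strand: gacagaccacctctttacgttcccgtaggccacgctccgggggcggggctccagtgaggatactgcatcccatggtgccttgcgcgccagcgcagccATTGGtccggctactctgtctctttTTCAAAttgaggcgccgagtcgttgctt
PLK1, chr16:23678739-23678888, + strand: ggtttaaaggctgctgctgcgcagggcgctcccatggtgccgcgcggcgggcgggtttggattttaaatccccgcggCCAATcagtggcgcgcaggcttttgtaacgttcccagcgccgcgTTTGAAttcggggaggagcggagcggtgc
HMMR, chr5:163460482-163460631, + strand: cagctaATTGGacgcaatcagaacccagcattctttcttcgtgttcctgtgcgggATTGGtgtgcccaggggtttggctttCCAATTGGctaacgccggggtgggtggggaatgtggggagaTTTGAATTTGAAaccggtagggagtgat
POLA1, chrX:24693768-24693917, + strand: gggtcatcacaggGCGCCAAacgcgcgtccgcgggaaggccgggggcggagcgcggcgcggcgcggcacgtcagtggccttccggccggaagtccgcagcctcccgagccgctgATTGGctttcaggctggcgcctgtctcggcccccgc
MCM7, chr7:100101398-100101547, - strand: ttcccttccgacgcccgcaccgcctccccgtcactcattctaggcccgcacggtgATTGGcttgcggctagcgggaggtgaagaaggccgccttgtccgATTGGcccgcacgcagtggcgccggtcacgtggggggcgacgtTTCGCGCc
POLA2, chr11:65261812-65261961, + strand: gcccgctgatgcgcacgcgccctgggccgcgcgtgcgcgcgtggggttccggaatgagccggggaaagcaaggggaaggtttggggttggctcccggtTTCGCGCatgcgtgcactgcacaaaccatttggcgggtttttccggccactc
In NCAPG, KIF11, PLK1 and HMMR the TTTGAA match nearest the start was followed by 29, 22, 23 and 16 bases up to the start, and HMMR held 2 matches in a row. HMMR, a spindle protein gene, fell by 1.02 on the log2 scale at 84 h, and POLA1, MCM7 and POLA2, of DNA polymerase alpha and the helicase, fell by 1.02, by 0.93 and by 0.84.

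Among called genes whose induced groups did not overlap, the 15 with the largest falls were CENPM, HELLS, GINS2, ERCC6L, ZNRD2, CENPE, NCAPG, FOXM1, CHAF1B, CDCA3, ZCWPW1, CENPN, KIF11, APOBEC3B and DTL, with differences of -2.33 to -1.31. Of these, 7 were in the cell cycle lists and 12 were called for the interaction. On 9 of them the 84 h mean lay under the 40th percentile of the arrays. A second probe set of CENPN, with low signals, gave -0.13 and was not called. ERCC6L, a helicase of mitotic chromatin, had 5.6, 16.1 and 20.8 at 84 h and 63.9, 77.8 and 79.1 at 72 h. DTL, of the ubiquitin ligase that degrades CDT1, had 45.8, 73.6 and 47.8 at 84 h and 118, 156 and 190 at 72 h. APOBEC3B, a DNA cytosine deaminase, had 134, 185 and 166 at 84 h and 413, 365 and 472 at 72 h. That the groups of these 15 genes did not overlap follows from the choice.

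The 15 largest rises among called genes whose induced groups did not overlap were another mixture: PCOLCE, EPHA2, APOA1, CA11, RAB3A, ZNF358, CUEDC1, HDAC5, H1-2, TFF3, GP9, GOLGA2, POMC, CIAO3 and PPDPF, from 1.69 to 1.28. Of these, 11 had a 72 h mean under the 40th percentile of the arrays, and 0 were called for the interaction. PCOLCE, an enhancer of procollagen processing, had 80.7, 72.6 and 122 at 84 h and 20.3, 19.5 and 20.9 at 72 h (1.69 ± 0.31, adjusted p = 0.000699). HDAC5, a histone deacetylase, had 234, 219 and 196 at 84 h and 116, 65.8 and 53.7 at 72 h (1.40 ± 0.21, adjusted p = 7.12e-05). GOLGA2, a Golgi matrix protein gene, had 304, 293 and 282 at 84 h and 103, 119 and 100 at 72 h (1.36 ± 0.16, adjusted p = 4.97e-06), and it rose in uninduced cells too (0.59, adjusted p = 0.0447). That the groups of these genes did not overlap follows from the choice. Of the 15 rises, those of EPHA2, RAB3A, ZNF358, CUEDC1, TFF3, GP9 and CIAO3 lost their call with some 1 array left out, and CUEDC1, TFF3 and ZNF358 also with a pseudocount of 1.

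Genes known as targets of FOXO factors and the PI3K-AKT axis rose in part, 5 of 21 tested higher and 0 lower (median 0.27), with 5 higher in uninduced cells as well. That was 23.8% of the list in either setting, against 11.5% of all genes in induced and 4.05% in uninduced cells. TXNIP, an inhibitor of thioredoxin and glucose uptake, had 2830, 2835 and 2730 in induced cells at 84 h and 1209, 1155 and 1173 at 72 h, far apart (1.24 ± 0.12, adjusted p = 1.63e-07). In uninduced cells it had 366, 308 and 433 at 84 h and 286, 276 and 221 at 72 h (0.48, adjusted p = 0.0199), and the interaction was called (0.76, adjusted p = 0.0153). CCNG2 (0.78), BCL6 (0.63) and SESN1 (0.63) rose in induced cells. CCNG2 and BCL6 rose by 0.75 and 0.63 in uninduced cells. Over the list the interaction was called with a higher change in induced cells for 1 gene and a lower change for 2, and its median was 0.01.

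Among S100 proteins, annexins and galectins 4 of 24 tested genes rose and 1 fell. Called members made up 20.8% of the list, against 11.5% of all genes tested. S100A4, which binds calcium and is known from migrating and metastatic cells, had 1703, 1453 and 1448 in induced cells at 84 h and 736, 613 and 607 at 72 h, without overlap (1.22 ± 0.22, adjusted p = 0.000561). Uninduced cells gave 7.0, 12.3 and 22.4 at 84 h and 33.3, 28.9 and 28.8 at 72 h, so the change ran the other way at signals near the lower end of the arrays. The interaction was 2.0 (adjusted p = 0.000515), and the difference from uninduced cells was 6.0 at 84 h and 4.0 at 72 h. S100A9 (0.52) and S100A8 (0.49), which form calprotectin, rose, with calls lost without any 1 of 5 and of 4 of the 6 arrays. ANXA3 had 383, 418 and 418 at 84 h and 742, 725 and 742 at 72 h (-0.84 ± 0.10, adjusted p = 3.71e-06) and fell in uninduced cells too (-0.39, adjusted p = 0.0294).

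Antigen presentation genes were higher at 84 h in part. Of 13 tested MHC class II genes 4 rose and 0 fell (median 0.41), and 0 were called in uninduced cells. HLA-DRB1 had 1630, 1978 and 1771 at 84 h and 1213, 1006 and 938 at 72 h in induced cells (0.77 ± 0.14, adjusted p = 0.000642). CD74, the invariant chain, had 1210, 1184 and 1122 at 84 h and 743, 807 and 702 at 72 h (0.64 ± 0.17, adjusted p = 0.0163). HLA-DRA had 2645, 2634 and 2698 at 84 h and 1867, 1860 and 1879 at 72 h (0.51 ± 0.14, adjusted p = 0.0224). These groups were apart, and HLA-DPA1 rose by 0.31. HLA-DRA and HLA-DPA1 lost their calls when any 1 of the 6 arrays was left out, and CD74 without replicate 1 of 84 h, replicate 1 of 72 h or replicate 3 of 72 h (adjusted p up to 0.073). The interaction was called for HLA-DRB1 (0.88, adjusted p = 0.0209). Of 16 tested MHC class I genes 4 rose, HLA-C (0.49), HLA-F (0.45), HLA-G (0.41) and HLA-B (0.31), and HLA-B rose by 0.42 in uninduced cells. Called members made up 30.8% of the class II list and 25% of the class I list, against 11.5% of all genes tested. The class I probe sets may read more than 1 of these like genes.

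Lysosomal genes rose in 7 of 26 cases, with 1 lower (median 0.20, 30.8% called against 11.5% of all genes tested). They included LAMP2 (0.69) of the lysosomal membrane, the protease CTSB (0.56), prosaposin PSAP (0.55) and HEXA (0.46). CTSB rose by the same 0.56 in uninduced cells. Its other probe sets gave 0.40 in induced cells, which was called, and 0.09 and 0.02, which were not. The other 2 probe sets of LAMP2 gave -0.11 and 0.39 and were not called, and neither was the mean of its probe sets (0.32, adjusted p = 0.114). Glycolysis and hypoxia genes rose in 8 of 29 cases with 0 lower (median 0.27), and in 5 cases in uninduced cells (median 0.19). Called members made up 27.6% of this list in induced and 17.2% in uninduced cells, against 11.5% and 4.05% of all genes. P4HA1, a collagen hydroxylase induced by hypoxia, had 967, 932 and 881 at 84 h and 470, 505 and 529 at 72 h (0.87 ± 0.13, adjusted p = 8.57e-05), and in uninduced cells 902, 895 and 779 at 84 h and 634, 521 and 500 at 72 h. BNIP3L (0.74), MXI1 (0.73) and ALDOC (0.67) rose in induced cells, and by 0.86, 0.68 and 0.75 in uninduced cells. The interaction was called for 1 gene of this list and 0 lysosomal genes.

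Growth-related lists moved down in part. The amino acid response run by ATF4 was lower in part, since 11 of 30 tested genes fell and 0 rose (median -0.23), with 1 lower in uninduced cells. They were transfer RNA synthetase and transport genes such as WARS1 (-0.65), XPOT (-0.61) and YARS1 (-0.60), and the regulator TRIB3 (-0.61). YARS1 had 751, 883 and 846 at 84 h and 1313, 1219 and 1242 at 72 h, far apart, and its interaction was called (-0.58, adjusted p = 0.0111). Of 26 ribosome biogenesis and MYC genes 8 fell and 0 rose (median -0.27), with 3 lower in uninduced cells. NOLC1, a nucleolar chaperone, fell by 0.64 in induced and by 0.67 in uninduced cells, and SRM, spermidine synthase, fell by 0.59 and by 0.53. Of 20 heat shock and chaperone genes 8 fell and 0 rose (median -0.30), with 4 lower in uninduced cells and the interaction called for 0. HSPH1, an HSP110 chaperone, had 329, 510 and 393 at 84 h and 1142, 753 and 713 at 72 h (-1.05 ± 0.18, adjusted p = 0.000454). FKBP4 (-0.73), HSPA9 (-0.59) and DNAJA1 (-0.57) followed. Called were 36.7% of the amino acid list, 30.8% of the ribosome list and 40% of the chaperone list. Over all genes tested the share was 11.5%.

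**Figure D3:**
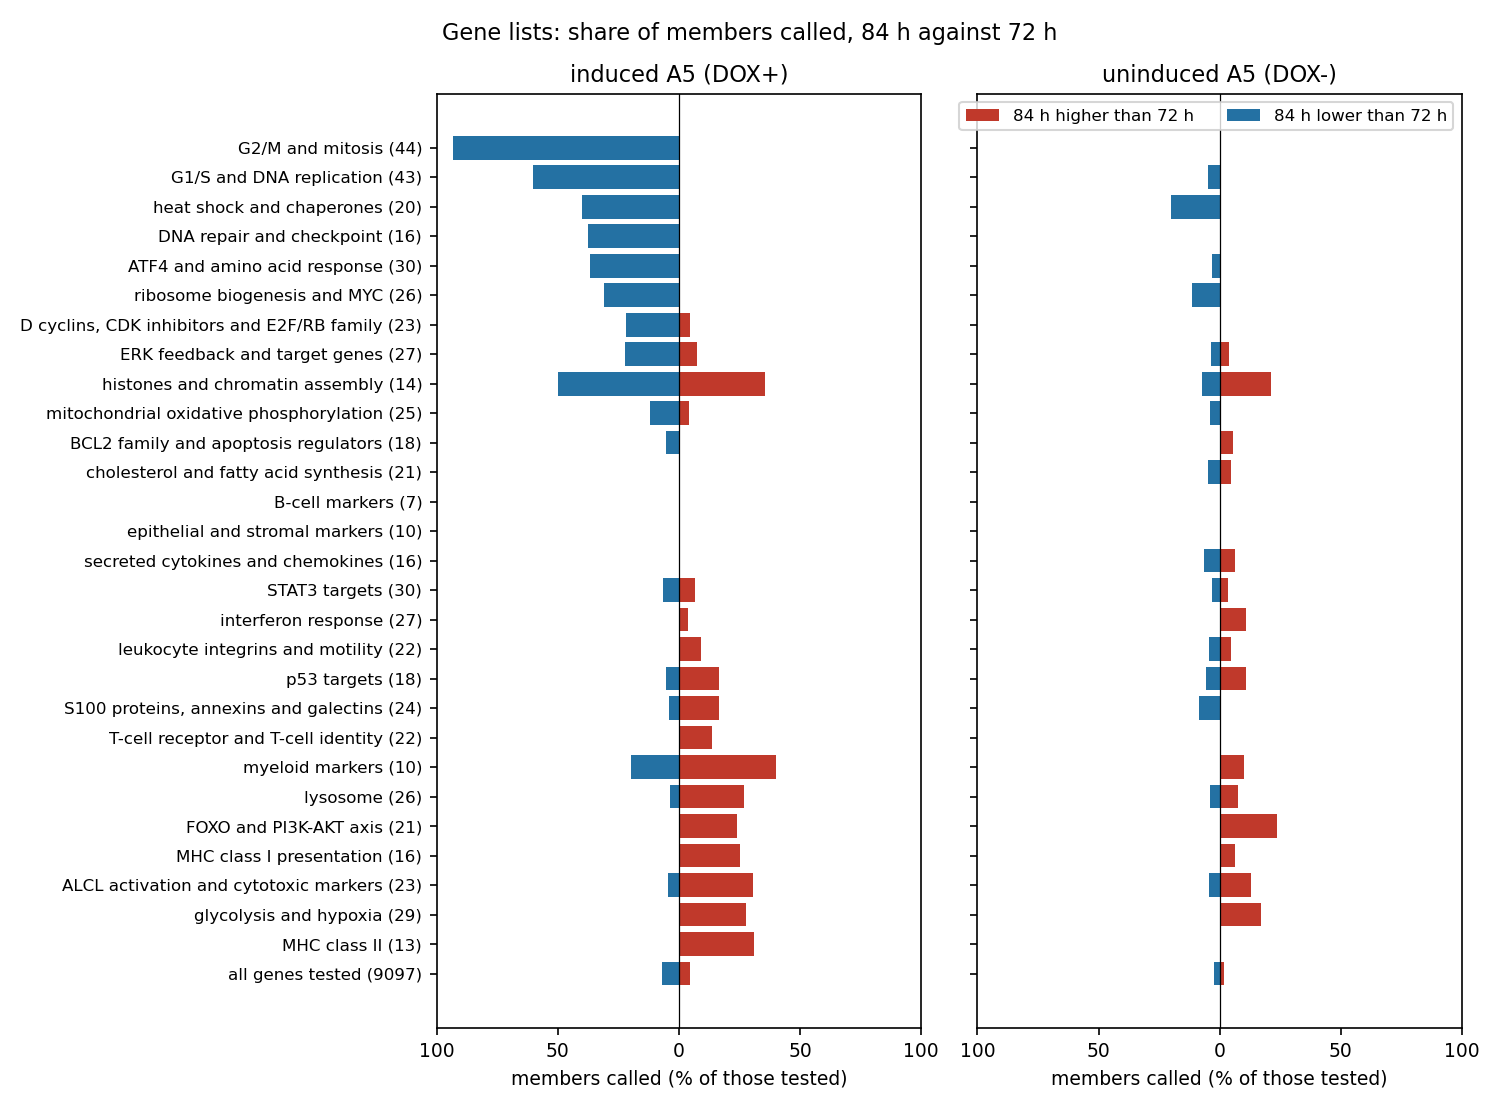
Share of the tested members of each gene list (number in brackets) called higher (red, right) or lower (blue, left) at 84 h against 72 h, in induced (left panel) and uninduced A5 TS cells (right panel). The G2/M list has 41 of 44 members lower in induced cells and 0 called in uninduced cells, and the bottom row gives all 9097 genes.

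Genes known as targets of the signalling pathways used by ALK moved in both directions. Of 27 tested ERK feedback and target genes 6 fell and 2 rose (29.6% called, against 11.5% of all genes tested). ETV4 (-0.79), SPRY4 (-0.51) and ETV1 (-0.51) fell, and ZFP36 (0.44) rose. SPRY4, a feedback inhibitor of the RAS-ERK pathway, had 414, 488 and 453 at 84 h and 653, 663 and 630 at 72 h in induced cells, without overlap (adjusted p = 0.00236), and uninduced cells gave 173, 153 and 168 at 84 h and 177, 165 and 150 at 72 h. SPRY4 thus stood above uninduced cells at both times, by 1.40 at 84 h and 1.92 at 72 h, and ETV1 by 1.74 and 2.13. The other 4 ETV1 probe sets gave -0.05 to 0.17, and the mean over its probe sets was not called (adjusted p = 0.828). MYC had 310, 328 and 330 at 84 h and 402, 410 and 429 at 72 h (-0.35 ± 0.09, adjusted p = 0.0152), a call lost without replicate 1 of 84 h or replicate 3 of 72 h. Its interaction was called (-0.54, adjusted p = 0.0366).

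Of 30 tested STAT3 targets 2 fell, BIRC5 (-0.96), which is also a mitotic gene, and MYC, and 2 rose, SOCS3 (0.49) and JUNB (0.31). The other BIRC5 probe sets gave -0.75, which was called, and -0.20, which was not. Called members made up 13.3% of the STAT3 list, near the 11.5% of all genes tested. Of 23 ALCL activation and cytotoxic markers 7 rose, among them S100A9, S100A8 and SOCS3, and BATF3 (-0.49), a transcription factor of these cells, fell. Called members made up 34.8% of that list, and its median was 0.14. TNFRSF8, which encodes CD30, the surface marker of ALCL, had 340, 402 and 391 at 84 h and 393, 433 and 419 at 72 h and was not called (-0.13, adjusted p = 0.386). It was chosen after its values were seen.

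Of 25 oxidative phosphorylation genes SDHA (0.56) rose, and ATP5MC1 (-0.49), NDUFA8 (-0.36) and NDUFAB1 (-0.26) fell. These calls made up 16% of the list, against 11.5% of all genes tested. Of 18 apoptosis regulators only CFLAR was called (-0.33), and the mean over its 10 probe sets was 0.15, so its direction depended on the probe set. IFITM1 (0.32) was the single called gene of 27 interferon response genes, and the 22 integrin and motility genes gave RAC2 (0.39) and SELPLG (0.37). These were 3.70% and 9.09% of the lists, below the share of all genes. Of 21 cholesterol and fatty acid synthesis genes 0 were called, with SREBF1 (0.54) and LSS (0.40) the most changed. Of 16 cytokine genes 0 were called, with OSM (-0.73) and IL22 (0.67) the most changed.

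Markers of other cell types were read for the identity of the samples. Of 22 T-cell genes 3 rose, CD52 (1.01), SIRPG (0.69) and FYN (0.52). That was 13.6% of the list called, near the 11.5% of all genes tested. CD52, a surface glycoprotein of lymphocytes, had 309, 241 and 274 at 84 h and 115, 119 and 162 at 72 h in induced cells, and 6.3 to 8.4 and 6.6 to 7.9 in uninduced cells at 84 h and 72 h. Its second probe set had 203, 160 and 139 at 84 h and 122, 127 and 116 at 72 h in induced cells. That difference was not called (0.41, limma adjusted p = 0.414 over all probe sets). Of 10 myeloid markers 4 rose, FCGR2A (1.04), CSF3R (0.78), S100A9 and S100A8, and 2 fell, CSF1R and CD163. CD14, LYZ, SPI1 and FCGR1A lay under the 40th percentile on all 6 arrays, and so did FCGR2A. Of 16 myeloid markers on the array 7 lay under it on all 6 arrays, and 8 lay above it on all 6. Among the latter were CSF1R, CD163, ITGAX and ITGAM. Of 12 B-cell markers 3 lay above it on all 6 arrays, CD22, BLK and IGKC, and of 16 epithelial and stromal markers 4. The summed signal of 16 myeloid markers was 11104 to 14173 at 84 h and 9155 to 10131 at 72 h, and that of 12 T-cell and ALCL markers 7622 to 8426 and 7783 to 7992. Of 7 B-cell genes (PAX5 0.88, MS4A1 0.49) and 10 epithelial and stromal genes (COL1A2 0.92, KRT5 -0.73) 0 were called. CD3D, TNFRSF8, GZMB and PRF1 stood above the 40th percentile on all 6 arrays, whereas CD7 and CD3G were below it on all 6.

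Part of the induced change was also seen without doxycycline. Of the 416 genes higher in induced cells 82 were higher in uninduced cells (19.7%, or 50.9% of the 161 there), and of the 633 lower ones 106 were lower (16.7%, or 51.2% of the 207). Only 2 genes were called in opposite directions. The 2 time changes come from separate arrays, and their Pearson correlation across 9097 genes was 0.36, where genes are not independent replicates. The metallothioneins of the MT1 and MT2A group, which bind zinc and copper, were picked after their values were seen: 7 of 7 tested genes of this group rose, by 0.75 to 1.24 in induced and by 0.72 to 1.53 in uninduced cells, and the interaction was called for 0. The other 2 tested metallothioneins were not called, MT3 with 0.29 in induced and 0.43 in uninduced cells and MT4 with -0.01 and 0.17. MT1X had 3889, 2667 and 2599 in induced cells at 84 h and 1297, 1258 and 1225 at 72 h, and 2542, 2946 and 2653 in uninduced cells at 84 h and 1198, 860 and 775 at 72 h. In both settings the times did not overlap. These probe sets may read more than 1 metallothionein. The zinc exporter gene SLC30A1, also picked so, rose by 0.66 and by 0.77.

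The other genes with the largest rises in uninduced cells were TMT1A (1.14, and 0.84 in induced cells) and CLDN15 (1.21, and 0.67, not called). The largest falls were SERPINB4 (-1.5), TRAPPC12 (-1.38), TEDC2 (-1.33), SPP1 (-1.21) and EXOG (-1.15). None of these 5 was called in induced cells. SPP1, osteopontin, had 153, 153 and 153 in uninduced cells at 84 h and 352, 409 and 344 at 72 h, while induced cells had 2468, 2197 and 2257 at 84 h and 2754, 2740 and 2709 at 72 h.

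Other ALK experiments that share no array with the induced TS cells were then read for the same genes. In Su-DHL1 cells, another ALK-positive ALCL line, the hairpin at 72 h called 2238 genes (24.6%) against uninduced cells. Of the 974 lower ones 318 were lower in TS cells at 84 h than at 72 h (32.6%) and 33 higher, with a median of -0.24. Of the 1264 higher ones 165 were higher (13.1%) and 29 lower, with a median of 0.13. In uninduced TS cells the lower set had a median of -0.08 and 87 genes called lower (8.93%), and the higher set a median of 0.09 and 54 genes called higher (4.27%). The G2/M list fell in Su-DHL1 cells as well, 37 of 44 genes, with a median of -0.57, and S100A4 (3.72), TXNIP (1.61) and HLA-DRA (2.86) rose there. CDKN1A went the other way in Su-DHL1 cells (-0.34, adjusted p = 0.012). The correlation of the 2 changes across genes was 0.31.

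**Figure D4:**
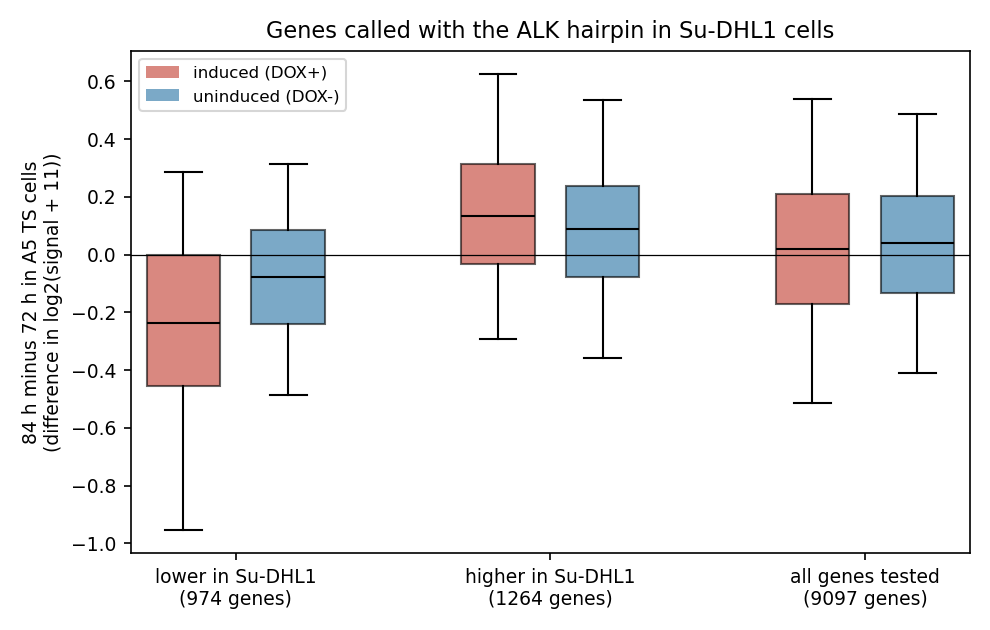
Difference between 84 h and 72 h in A5 TS cells, in log2(signal + 11), for genes called lower (974) or higher (1264) with the ALK hairpin in Su-DHL1 cells and for all 9097 genes. Boxes span the quartiles with the median as a line, whiskers run from the 5th to the 95th percentile, and the lower set has a median of -0.24 in induced (red) and -0.08 in uninduced cells (blue).

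The inhibitors A2 and A3, given to TS cells at 300 nM for 6 h and averaged against the mock compound A1, called 3290 of 8587 genes (38.3%). Of 1395 genes lowered by them and tested here 259 were lower at 84 h (18.6%), with a median of -0.13, and of 1872 raised by them 195 were higher (10.4%) and 119 lower, with a median of 0.09. In uninduced cells 103 of the lowered genes were lower (7.38%, median -0.08) and 87 of the raised genes higher (4.65%, median 0.08). The G2/M list stood the other way after 6 h of inhibitor, with 35 of 44 genes higher, 0 lower and a median of 0.53. CENPE (1.06) and NCAPG (1.00) were higher with the inhibitors and lower at 84 h of the hairpin. SOCS3 was lower by -4.10 with the inhibitors, and higher by 0.49 at 84 h than at 72 h of the hairpin.

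The mutated hairpin A5M with doxycycline differed from uninduced A5 cells at 84 h in 637 genes (7%). Of the 295 genes higher with A5M 81 were lower at 84 h than at 72 h in induced A5 cells (27.5%) and 11 higher (3.73%). Of the 342 genes lower with A5M 59 were higher (17.3%) and 16 lower (4.68%). Over all genes tested 6.96% were lower and 4.57% higher. The mean A5M signals of CENPM, NCAPG and KIF11 were 198, 258 and 220, and those of uninduced A5 cells at 84 h were 237, 271 and 262.

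Besides S100A4 (2.0), whose interaction rests on low uninduced signals, the called interactions named for an induced rise were those of PLBD1 (2.03), FZD1 (1.26), ATP8A2 (1.04), PKD1 (1.03) and ZSWIM8 (1.00). PLBD1 had signals of only 5.6 to 40.6 on the 12 A5 arrays, and the call of its induced rise was lost under 12 of 16 alternatives, so neither its size nor its place in this order can be relied on. FZD1, a WNT receptor, had 116, 148 and 153 in induced cells at 84 h and 85.4, 67.1 and 84.6 at 72 h, and 43.7, 55.9 and 46.1 in uninduced cells at 84 h and 83.1, 70.8 and 69.8 at 72 h. On this probe set the induced times were apart, and the uninduced times ran the other way. The second probe sets of FZD1 and ATP8A2 gave interactions of the opposite sign (-0.27 and -0.19, not called), and the induced rise of FZD1 was not called as the mean of its probe sets (0.48, adjusted p = 0.205). The 6 with the lowest values were CENPM (-2.39), HELLS (-2.13), CENPE (-1.95), ZNRD2 (-1.73), ERCC6L (-1.62) and NCAPG (-1.48), and 4 of the 6, all but HELLS and ZNRD2, are genes of mitosis.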

How the data were processed

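Total RNA of 33 samples was hybridised to HG-U133A arrays. The deposited values are signal intensity on a linear scale, which the authors made with MAS5, per the submitters' processing notes; the version is not given in the sources used here. MAS5 scales each array: the mean after trimming 2% at each end was 200.06 to 200.08 on all arrays, so a global change of RNA content cannot be seen. Of 22283 probe sets 68 controls were left out, 19065 had 1 gene symbol in the platform annotation, 1043 had several and 2107 none, and only the first were named. No 2 arrays held identical values.

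The scale used was log2(signal + 11), where 11 rounds 10.8, the value at the 20th percentile. A probe set was kept where it reached the 40th percentile of its array on at least 3 of the 21 hairpin arrays, and the one with the highest mean stood for its gene, which left 15338 probe sets and 9097 genes. limma 3.58.1 (R 4.3.3, lmFit, eBayes with trend) fitted a mean for each of the 7 hairpin groups (14 residual and 8.88 prior degrees of freedom), and another fit held the 12 inhibitor arrays. P-values are two-sided, with Benjamini-Hochberg adjustment over all genes of a comparison. On simulated data 64% to 74% of genes changed by 0.75 and 96% to 98% of those changed by 1.5 were recovered in the comparison of the induced times, and 5.68% of the calls were false. The simulated arrays had 50 genes changed by each amount in each direction, with independent normal noise of the spread of these arrays. Such noise lacks correlation between genes, so 5.68% is not an error rate of the calls reported here. Plots come from Python 3.11.15 and matplotlib 3.10.9. The number of arrays limits the precision.

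The members and gene lists were chosen with earlier results of these data known. Named were ALK, NPM1, CEBPB and BCL2A1, the 15 highest and lowest called genes of the induced comparison, 6 and 6 of the interaction, 5 and 5 of the uninduced comparison (groups without overlap), and up to 4 called members of a list, or 2 where none was called. Further list members are examples chosen after their values were seen. The replicate numbers of the labels were checked for pairing: same-numbered induced arrays at 84 h and 72 h had correlations of 0.01 of their deviations from the group means, so they were not treated as pairs.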

Additional observations from a re-analysis of the deposited data

Results flagged for a closer look

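The following named genes changed differently between 84 h and 72 h with and without doxycycline, by limma's interaction (adjusted p below 0.05). Values are induced minus uninduced change in log2(signal + 11), and their cause was not tested. The change was lower in induced cells for the mitotic and chromosome genes CENPM (-2.39), CENPE (-1.95), ERCC6L (-1.62), NCAPG (-1.48), FOXM1 (-1.42), KIF11 (-1.30), CENPN (-1.24) and BIRC5 (-1.15). It was lower for the replication, repair and chromatin genes HELLS (-2.13), GINS2 (-1.46), TYMS (-1.33), DTL (-1.29), FANCI (-1.06), ASF1B (-1.05), RAD51AP1 (-1.02) and MCM4 (-0.89), and for ZNRD2 (-1.73), APOBEC3B (-1.16), YARS1 (-0.58) and MYC (-0.54). The change was higher in induced cells for PLBD1 (2.03), S100A4 (2.0), FZD1 (1.26), ATP8A2 (1.04), PKD1 (1.03), ZSWIM8 (1.00), HLA-DRB1 (0.88), TXNIP (0.76), CDKN1A (0.76) and SELPLG (0.65). PLBD1 had signals of only 5.6 to 40.6 on the 12 arrays, and the second probe sets of FZD1 and ATP8A2 gave the opposite sign. So did the second probe set of CENPN (0.60, not called), whose mean signals in induced cells were 32.4 at 84 h and 36.6 at 72 h. The other probe sets of BIRC5 gave the same sign (-0.64 and -0.37) but were not called. The change was also higher in induced cells for SERPINB4 (1.57) and SPP1 (0.96), which fell in uninduced cells and were not called in induced cells. The interactions nearest the threshold were ZNRD2 with an adjusted p of 0.0495 and GINS2 with 0.0476.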

How the results depend on the processing

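The called genes of the induced comparison numbered 902 to 1217 under the alternatives that test 9097 genes and keep all 6 arrays compared, 1002 without the filter, 1093 with a filter at the array's median, and 1572 over 15338 probe sets. Leaving out 1 array gave 682 to 935, the lowest without replicate 3 of 72 h. The interaction gave 76 without the trend and 78 to 122 with 1 array left out, against 116. The uninduced comparison was the least stable, with 368 calls against 133 in a fit on its 6 arrays, 220 without the trend, 628 over all probe sets, and 136 to 343 with 1 array left out. The 208212_s_at difference of ALK was -0.40 with an adjusted p of 0.106 in a fit on the 6 arrays, and -0.26 and -0.28 without replicate 1 of 84 h and replicate 3 of 72 h, within -0.51 to -0.26 over the arrays left out. The 208211_s_at difference turned to -0.0023 with the ACTB ratio as a covariate and ranged from -0.029, without replicate 1 of 84 h, to 0.094 with an array left out. Signs turned for genes not called in this comparison: SERPINB4 (-0.013 with quantile normalization, and -0.11 to 0.36 with an array left out), TEDC2 (-0.087 with quantile normalization, -0.054 with the ACTB ratio, -0.089 to 0.085 with an array left out) and TRAPPC12 (-0.25 to 0.015 with an array left out). Of the named called genes only CFLAR turned, to 0.15 as the mean of its probe sets. Of 112 named called genes 69 kept their call under all alternatives and 73 when any 1 of the 6 arrays was left out. Calls lost on leaving out each of at least 4 arrays in turn were those of HLA-DRA, HLA-DPA1, E2F8, FYN, HLA-B, IFITM1, NDUFA8, NDUFAB1, NOP16, PLBD1, S100A9, TFF3, CFLAR, ETV1, HEXA, RAD54L, S100A8, SOCS3, TIGAR and ZFP36. On leaving out each of 1 to 3 arrays, those of ALK, CCNG2, CD52, CD74, CDKN3, CIAO3, CUEDC1, EPHA2, ETV4, GP9, HLA-G, JUNB, MT1H, MYC, RAB3A, SDHA, SELPLG, ZNF358 and ZSWIM8 were lost. As the mean of a gene's probe sets, ALK, CFLAR, ETV1, FYN, FZD1, HEXA, HLA-DPA1, HLA-F, LAMP2, NOP16 and S100A8 were not called. The replicate block, whose numbers do not pair the samples although each induced array correlated best with its own number, gave 1030, 332 and 103 calls for the induced, uninduced and interaction comparisons. The causes were not tested. Low signals limit the fold changes, since 9 of the 15 largest falls ended and 11 of the 15 largest rises began under the 40th percentile.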
